A study of Mus musculus with 13 samples.

Results

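The RNA of 9 genes that mark B cells and the antibody-secreting cells derived from them was examined in the aortas of 13 ApoE-/- mice, out of 54532 genes counted. The genes were chosen by name, as markers of these cells, with earlier results of these data known, and the choice used no threshold on their values. Ms4a1, Cd79a, Cd79b and Pax5 mark the B-cell lineage, Cr2 and Fcer2a mature follicular B cells, and Jchain, Mzb1 and Tnfrsf17 antibody-secreting cells. All mice lacked ApoE, were 10 weeks old at the start and received angiotensin II (AngII) from a pump at 1000 ng/kg/min for up to 28 days, a model of abdominal aortic aneurysm. Of these, 6 mice (Ad-sham) received 5 tail vein injections of an empty adenoviral vector and 7 (Ad-FAM3A) received the same vector carrying mouse Fam3a with a FLAG tag and mCherry under the EF1A promoter, which is active in most cell types. Each library held the RNA of 1 aorta with all its cell types, and the sex of each mouse was not given in the sources used here.

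B cells carry an antibody on their surface that signals through CD79A and CD79B, and PAX5 keeps their gene programme switched on. Once activated they can divide and mutate their antibody genes in germinal centres of lymphoid tissue, or become plasma cells, which shut down PAX5 and secrete antibody. In aneurysmal and atherosclerotic aortas, B cells and plasma cells are known from the adventitia, where they can gather with T cells in lymphoid aggregates, and lymph nodes lie in the fat around the vessel.

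Promoters of 6 of the 9 members were examined, in 8 entries from the RefSeq table for GRCm38.p6. Each entry had 250 bases before the transcription start and 50 after it. Promoters of the other members were not examined, and this count does not say whether the table held them. One promoter per role is shown, since Ad-FAM3A6 and Ad-FAM3A7 were the 2 highest aortas for these 3 genes. Cd79a is at chr7:24897247-24897546 on the plus strand, with a RefSeq start 116 bases from the gene start in the count table. Fcer2a is at chr8:3694125-3694424 and Jchain at chr5:88527848-88528147, both on the minus strand and both within 6 bases of the gene start in the table. Capitals mark matches on either strand to any of 4 short motifs: the octamer ATGCAAAT, the EBF core CCCNNGGG, the PU.1 box GAGGAA and the TATA box TATAAA, which do not overlap each other in these promoters.
Cd79a: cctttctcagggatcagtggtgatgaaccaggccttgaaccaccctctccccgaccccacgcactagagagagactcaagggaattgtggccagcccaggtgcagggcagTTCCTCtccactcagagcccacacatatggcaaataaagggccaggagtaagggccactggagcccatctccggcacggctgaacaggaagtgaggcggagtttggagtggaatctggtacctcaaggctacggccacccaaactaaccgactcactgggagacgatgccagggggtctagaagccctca
Fcer2a: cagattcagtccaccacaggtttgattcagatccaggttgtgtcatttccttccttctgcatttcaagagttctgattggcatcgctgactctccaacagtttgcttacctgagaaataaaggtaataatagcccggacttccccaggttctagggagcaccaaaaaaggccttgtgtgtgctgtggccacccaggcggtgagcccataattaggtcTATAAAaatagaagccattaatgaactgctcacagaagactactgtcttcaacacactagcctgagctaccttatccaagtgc
Jchain: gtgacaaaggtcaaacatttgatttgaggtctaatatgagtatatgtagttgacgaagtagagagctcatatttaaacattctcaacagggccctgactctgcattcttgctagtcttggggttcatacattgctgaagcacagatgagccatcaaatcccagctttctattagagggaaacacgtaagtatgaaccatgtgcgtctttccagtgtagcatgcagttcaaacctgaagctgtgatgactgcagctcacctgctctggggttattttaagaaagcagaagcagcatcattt
The capitals in Cd79a are a PU.1 box read from the other strand, 140 bases before the start, and those in Fcer2a a TATA box 33 bases before it. Jchain held none of the motifs in this window. Over the 8 entries the PU.1 box was found in 2 (Cd79a and Tnfrsf17), against 28.3% of all 32851 promoters, and the TATA box in 2 (Fcer2a and Tnfrsf17), against 13.6%. The octamer (1.74% of all promoters) and the EBF core (13.7%) were found in none. A match is only a match of letters, and its absence says only that these letters are not in this window.

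Counts on genes summed to between 14481179 and 19797407 per aorta, and a count of 0 allows a level of up to 3 counts, which was 0.152 to 0.207 CPM (counts scaled to library size) and covers counting error only. Fam3a itself was between 17.7 and 29.2 CPM in the Ad-sham aortas and between 19.98 and 29.2 CPM in the Ad-FAM3A aortas, so the groups overlapped and the group names here are those of the labels. The mean log2 CPM of 5 smooth muscle genes was between 7.18 and 10.19 in the 13 aortas, above that of the B-cell receptor members, at 0.50 to 7.10. The 9 members together took between 0.00153% and 0.00568% of the counts in 11 aortas, 0.251% in the aorta labelled Ad-FAM3A6 and 0.0718% in Ad-FAM3A7. These 2 aortas stood apart from the other 11, and fold changes of the members and of the B-cell lists are therefore given with and without them. In whole tissue, fewer cells of a type and less RNA per cell cannot be told apart.

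All 8 members that could be tested had a higher fitted mean in the Ad-FAM3A aortas, with 2 of the 7 aortas far above the rest. Ad-FAM3A6 was the highest aorta for 9 of 9 members, and Ad-FAM3A6 and Ad-FAM3A7 were the 2 highest for 8 of 9, against 5.46% of the genes tested. The groups overlapped for all 9, and for 6 of 9 the Ad-FAM3A median was below the Ad-sham median. No share over all genes tested was computed for these counts or for the single highest aorta. They describe the members only. By edgeR's quasi-likelihood test, adjusted after Benjamini and Hochberg, 0 of the 8 members tested were called at an adjusted p under 0.05, as were 0% of the 15811 genes tested, and each member had an adjusted p of 0.810. DESeq2 and limma-voom also called 0 of them, and limma-voom gave smaller log2 fold changes for the members, 0.63 to 1.68, where edgeR gave 2.13 to 4.49. At an unadjusted p under 0.05, 8 of 8 were higher, against 2.98% of the genes tested. Their median log2 fold change was 2.68, and that of all genes tested was 0.0032.

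**Figure D1:**
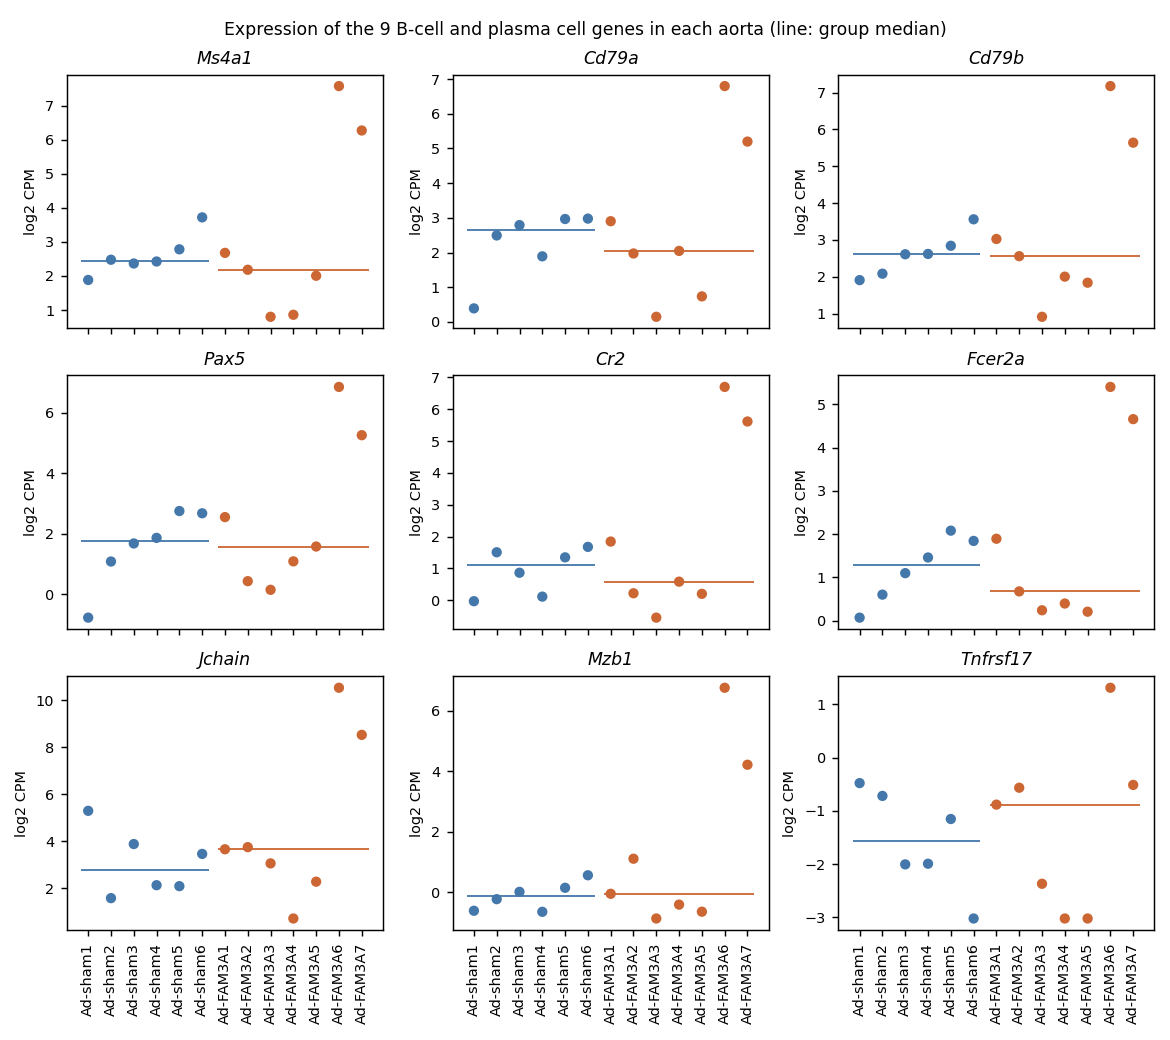
Expression of each of the 9 genes, as log2 CPM with a prior count of 2 (y axis), in each of the 13 aortas (x axis), with Ad-sham in blue, Ad-FAM3A in orange and a line at the group median. Ad-FAM3A6 is the highest point in all 9 panels, and in the 6 B-cell panels Ad-FAM3A1 to Ad-FAM3A5 lie within or below the range of the Ad-sham aortas, except for Cr2 in Ad-FAM3A1, at 3.47 CPM against at most 3.08.

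The first of the lineage genes was Ms4a1, which encodes CD20, a membrane protein of B cells that is lost on plasma cells (ENSMUSG00000024673, GRCm38 chromosome 19 from 11249675 to 11266241). Its level was between 3.56 and 13.1 CPM in the Ad-sham aortas, with a median of 5.35, and between 1.62 and 192 CPM in the Ad-FAM3A aortas, with a median of 4.42. The high values were 192 CPM in Ad-FAM3A6 (3171 counts) and, in Ad-FAM3A7, 77.4 CPM (1341 counts), while the next highest aorta was Ad-sham6 with 13.1 CPM. The other 5 Ad-FAM3A aortas were at 1.62 to 6.28 CPM, within or below the sham range. The fitted log2 fold change was 2.66 ± 1.09 (SE), with an adjusted p of 0.810 and an unadjusted p of 0.0288 by edgeR's quasi-likelihood test. On mean log2 CPM the difference was 0.59, with p = 0.575 by a two-sided exact permutation test. Ms4a1 overlaps an antisense gene, 4930526L06Rik, which had 0 to 4 counts per aorta.

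Cd79a and Cd79b encode the paired signalling chains of the B-cell receptor. Cd79a (ENSMUSG00000003379, chromosome 7 from 24897381 to 24902197) was between 1.19 and 7.76 CPM in the Ad-sham aortas, with a median of 6.15, and between 0.985 and 111 CPM in the Ad-FAM3A aortas, with a median of 4.01. Cd79b (ENSMUSG00000040592, chromosome 11 from 106311341 to 106314762) was between 3.63 and 11.7 CPM in the Ad-sham aortas, with a median of 6.002, and between 1.76 and 145 CPM in the Ad-FAM3A aortas, with a median of 5.77. For both genes Ad-sham6 was the highest aorta after Ad-FAM3A6 and Ad-FAM3A7, and Ad-FAM3A3 was the lowest of all. The second-ranked aorta, Ad-FAM3A7, had 36.6 CPM of Cd79a and 49.8 CPM of Cd79b. The fitted log2 fold changes were 2.13 ± 0.99 (SE) for Cd79a and 2.29 ± 0.95 (SE) for Cd79b. Their differences in mean log2 CPM were 0.58 and 0.70, with p = 0.609 and p = 0.486 by the exact permutation test.

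The share of Cd79a in the pair was also read within each aorta. Cd79a was 43.5% of the counts of Cd79a plus Cd79b in Ad-FAM3A6 (95% Wilson interval 42.0 to 45.0) and 42.4% in Ad-FAM3A7, within the range of the other 11 aortas, 24.7% to 57.2%. The intervals cover counting error only.

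Pax5 encodes the transcription factor that commits cells to the B lineage (ENSMUSG00000014030, chromosome 4 from 44524757 to 44710487). It was between 0.462 and 6.62 CPM in the Ad-sham aortas, with a median of 3.30, and between 0.985 and 116 CPM in the Ad-FAM3A aortas, with a median of 2.87. Ad-FAM3A6 had 1920 counts and Ad-FAM3A7 663, and the next highest aorta, Ad-sham5, had 142. The fitted log2 fold change was 2.71 ± 1.12 (SE), and the difference in mean log2 CPM was 1.01 with p = 0.410 by the exact permutation test. Pax5 lies over 4 other genes of the table, of which the 3 on the other strand had at most 7 counts in any aorta and the miRNA gene Mir5120 had 0.

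Cr2 and Fcer2a mark mature B cells of the follicle. Cr2 encodes complement receptor 2, CD21, which is also made by follicular dendritic cells (ENSMUSG00000026616, chromosome 1 from 195136811 to 195176716). It was between 0.858 and 3.08 CPM in the Ad-sham aortas, with a median of 2.06, and between 0.563 and 104 CPM in the Ad-FAM3A aortas, with a median of 1.38. Of the 6 B-cell members Cr2 had the widest gap, as its 48.9 CPM in Ad-FAM3A7 was 14.1 times the 3.47 CPM of the next aorta, Ad-FAM3A1, whereas this ratio was 4.26 to 6.13 for the other 5. Its fitted log2 fold change was 3.55 ± 1.23 (SE), with an adjusted p of 0.810 and an unadjusted p of 0.0116 by edgeR's quasi-likelihood test, and the difference in mean log2 CPM was 1.17 with p = 0.407 by the exact permutation test. Set against Cd79b, Cr2 was 41.8% of the counts of both genes in Ad-FAM3A6 (95% Wilson interval 40.3 to 43.3) and 49.6% in Ad-FAM3A7 (47.2 to 51.9). In the other 11 aortas it was 13.8% to 39.8%, and the interval of the highest of these, Ad-sham2 with 45 of 113 counts, was 31.3 to 49.0, which held the value of Ad-FAM3A6 and overlapped the interval of Ad-FAM3A7.

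Fcer2a encodes CD23, the low-affinity IgE receptor (ENSMUSG00000005540, chromosome 8 from 3681737 to 3694175). Its level was between 0.924 and 4.11 CPM in the Ad-sham aortas, with a median of 2.32, and between 1.03 and 42.3 CPM in the Ad-FAM3A aortas, with a median of 1.47. Fcer2a had the smallest gap between the 2 high aortas, with 42.3 CPM in Ad-FAM3A6 being 1.68 times the 25.2 CPM in Ad-FAM3A7. The fitted log2 fold change was 2.16 ± 0.94 (SE), and the difference in mean log2 CPM was 0.73 with p = 0.455 by the exact permutation test. The share of Fcer2a in Fcer2a plus Cd79b, 22.6% and 33.6% in these aortas, was within the 20.3% to 37.5% of the other 11.

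Of the antibody-secreting members, Jchain had the highest values in the 2 aortas that stood apart. It encodes the chain that joins IgM and IgA units into polymers (ENSMUSG00000067149, chromosome 5 from 88519809 to 88527891). Jchain was between 2.84 and 39.0 CPM in the Ad-sham aortas, with a median of 7.53, and between 1.504 and 1482 CPM in the Ad-FAM3A aortas, with a median of 12.4. Ad-FAM3A6 had 24534 counts and Ad-FAM3A7 6387, followed by Ad-sham1 with 591. In Ad-sham1 the B-cell genes were low at the same time: Pax5 and Fcer2a had their lowest level of all 13 aortas there, and Cd79a and Cr2 ranked twelfth. The fitted log2 fold change of Jchain was 4.44 ± 1.56 (SE), with an adjusted p of 0.810 and an unadjusted p of 0.0131 by edgeR's quasi-likelihood test, and the difference in mean log2 CPM was 1.57 with p = 0.357 by the exact permutation test.

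Mzb1 encodes a chaperone of the endoplasmic reticulum that helps to assemble and secrete antibody (ENSMUSG00000024353, on chromosome 18). It was between 0.512 and 1.35 CPM in the Ad-sham aortas, with a median of 0.804, and between 0.422 and 108 CPM in the Ad-FAM3A aortas, with a median of 0.838. In the 11 other aortas Mzb1 had at most 33 counts, in Ad-FAM3A2, against 1791 in Ad-FAM3A6 and 319 in Ad-FAM3A7. Mzb1 differed most between the 2 high aortas, by 5.88 times. Its fitted log2 fold change was 4.49 ± 1.38 (SE), with an adjusted p of 0.810 and an unadjusted p of 0.00557 by edgeR's quasi-likelihood test, and the difference in mean log2 CPM was 1.57 with p = 0.310 by the exact permutation test.

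Tnfrsf17 encodes BCMA, a receptor through which plasma cells receive survival signals (ENSMUSG00000022496, chromosome 16 from 11313812 to 11320074). It had 0 to 9 counts in the Ad-sham aortas and 0 to 39 in the Ad-FAM3A aortas, with 39 in Ad-FAM3A6 and 10 in Ad-FAM3A7, and did not pass the filter on low counts. Tnfrsf17 was the exception among the members, as Ad-sham1 with 9 counts (0.594 CPM) was above Ad-FAM3A7 (0.577 CPM), a difference that was not detectable at this depth. The difference in mean log2 CPM was 0.27, with p = 0.723 by the exact permutation test.

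Without Ad-FAM3A6 and Ad-FAM3A7, an omission chosen after seeing the data, the fitted log2 fold changes were below 0 for 7 of the 8 members tested, against 52.0% of the genes tested. The values were -0.86 ± 0.43 (SE) for Ms4a1, -0.67 ± 0.71 for Jchain and 0.10 ± 0.46 for Mzb1, the one member above 0. None was called, the smallest adjusted p being 0.782 by edgeR's quasi-likelihood test for Ms4a1, and 0 members had an unadjusted p under 0.05. The difference in mean log2 CPM was below 0 for 9 of 9 members, with p between 0.0866 for Ms4a1 and 0.905 for Mzb1 by the exact permutation test. The higher means of the Ad-FAM3A group thus rested on these 2 aortas for every B-cell member. Other lists also shifted in the fit without these 2 aortas. The median log2 fold change was -1.14 for 12 T-cell genes, all below 0, and 0.73 for 5 smooth muscle genes, all above 0. Their part in the values of the members was not tested.

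**Figure D2:**
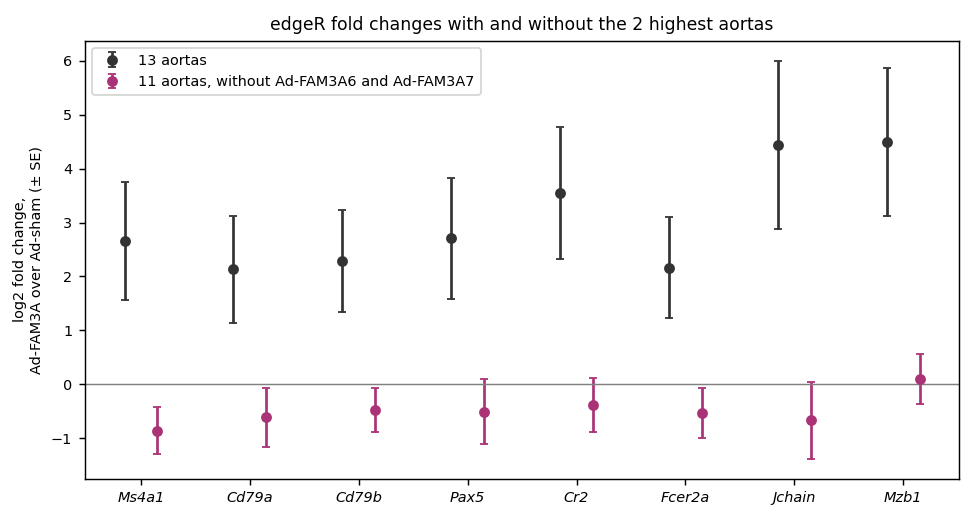
Fitted log2 fold change of Ad-FAM3A over Ad-sham (y axis, points with bars of 1 SE) for the 8 members tested by edgeR (x axis), with all 13 aortas in black and with 11 aortas in purple. With 13 aortas the values lie between 2.13 and 4.49, and with 11 between -0.86 and 0.10.

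Compared per kilobase of gene length, Jchain had the highest level of the members in 6 aortas (Ad-sham1, Ad-sham3, Ad-FAM3A2, Ad-FAM3A3, Ad-FAM3A6 and Ad-FAM3A7) and Cd79a or Cd79b in the other 7. In the Ad-sham aortas the median levels of Cd79a (4.22 CPM per kilobase), Cd79b (4.19) and Jchain (2.99) were the highest, and their ranges overlapped. Mzb1 (0.888), Ms4a1 (0.865) and Fcer2a (0.751) followed with overlapping ranges, and Pax5 (0.373), Tnfrsf17 (0.279) and Cr2 (0.254) were lowest, again with overlapping ranges. By the medians of the Ad-FAM3A aortas the order was Jchain (4.95 CPM per kilobase), Cd79b (4.03), Cd79a (2.75), Mzb1 (0.926) and Ms4a1 (0.714), then Tnfrsf17, Fcer2a, Pax5 and Cr2, and their ranges overlapped. In Ad-FAM3A6 Jchain led with 589 CPM per kilobase, followed by Mzb1 with 120, Cd79b with 101 and Cd79a with 76.4. In Ad-FAM3A7 Jchain led with 147, followed by Cd79b with 34.8, Cd79a with 25.1 and Mzb1 with 20.4. The authors' mean FPKM of the groups, which has no error, gave Jchain 5.05 in Ad-sham and 111 in Ad-FAM3A, and Pax5 0.408 and 2.77.

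The 6 B-cell members varied together also among the other 11 aortas, whereas Jchain did not follow them. Over these 11 aortas the 15 pairs of B-cell members had a Pearson correlation of log2 CPM between 0.66 and 0.88 and a Spearman correlation between 0.66 and 0.93. Mzb1 had Pearson correlations of 0.29 to 0.68 with the B-cell members, Jchain of -0.34 to 0.23 and Tnfrsf17 of -0.29 to 0.16. Among the antibody-secreting members the Pearson correlations were 0.21 for Jchain with Mzb1, 0.42 for Jchain with Tnfrsf17 and 0.27 for Mzb1 with Tnfrsf17. The points share the scaling of each library, Mzb1 and Tnfrsf17 rest on few counts, and the values are given as a description.

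Jchain as a share of the counts of Jchain plus the 6 B-cell members was therefore far from constant. It was highest in Ad-sham1, at 78.6% (95% Wilson interval 75.5 to 81.4), followed by Ad-FAM3A6 at 67.6% (67.1 to 68.1), Ad-FAM3A7 at 57.2% (56.3 to 58.1) and Ad-FAM3A3 at 54.0% (47.3 to 60.5). The lowest shares were 9.60% in Ad-FAM3A4 (6.54 to 13.9), 10.6% in Ad-sham5 and 11.8% in Ad-sham2. High and low shares thus occurred in both groups. A high share had different counts behind it, since Ad-FAM3A3 had 116 counts of Jchain and Ad-FAM3A6 had 24534.

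**Figure D3:**
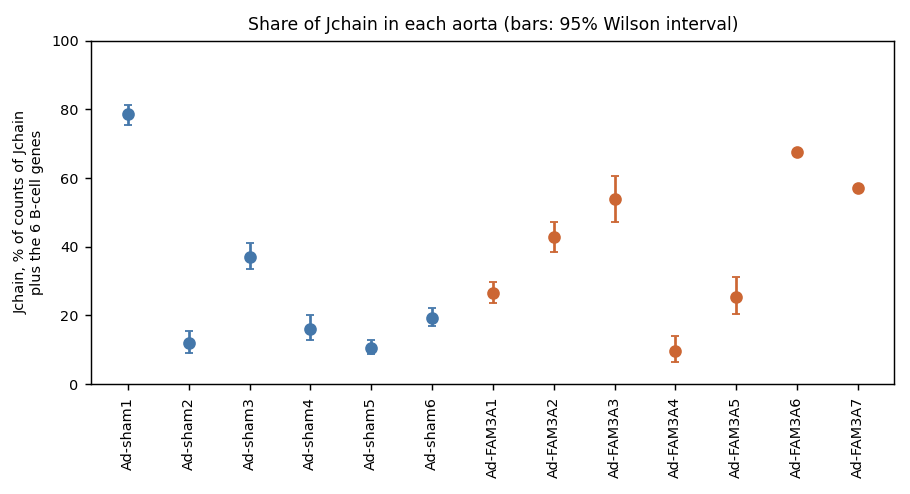
Jchain as a percentage of the counts of Jchain plus the 6 B-cell members (y axis) in each aorta (x axis), with 95% Wilson intervals, Ad-sham in blue and Ad-FAM3A in orange. The shares run from 9.60% in Ad-FAM3A4 to 78.6% in Ad-sham1, and the groups overlap.

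The antibody genes themselves are immunoglobulin constant genes, whose near-identical members can share reads, so single values are uncertain. Of 12 constant genes, 12 were highest in Ad-FAM3A6 and 10 had Ad-FAM3A6 and Ad-FAM3A7 as the 2 highest aortas. The median log2 fold change of the 11 tested was 4.78, with 10 at an unadjusted p under 0.05, all higher, and without these 2 aortas it was -0.54, with 3 (Ighd, Ighg1 and Ighm) at an unadjusted p under 0.05, all lower, and 0 were called by edgeR's quasi-likelihood test in either fit. Ighm, the heavy chain of IgM, had 107961 counts in Ad-FAM3A6 and 37181 in Ad-FAM3A7, and the 4 IgG genes together had 148077 and 36178. The IgG genes, which are used after class switching, were 56.3% of the heavy-chain counts in Ad-FAM3A6 (95% Wilson interval 56.1 to 56.5) and 47.2% in Ad-FAM3A7 (46.9 to 47.6). In the other 11 aortas this share was between 1.42% in Ad-sham1 and 29.8% in Ad-FAM3A3. In Ad-sham1, where Jchain was high and the B-cell genes low, Ighm was 92.8% of the heavy-chain counts (91.9 to 93.6), the highest share of the 13 aortas.

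Other genes of mature B cells followed the members. Of 25 listed genes, 24 were tested, 23 had a fitted log2 fold change above 0 and 15 had an unadjusted p under 0.05, all of them higher, but 0 were called by edgeR's quasi-likelihood test. Their median log2 fold change was 2.05, and 23 of 25 had Ad-FAM3A6 and Ad-FAM3A7 as the 2 highest aortas. Pou2af1, a coactivator of transcription in B cells, was at 191 and 48.1 CPM in these aortas and at most 5.32 CPM elsewhere, and Cxcr5, the receptor that guides B cells into follicles, was at 45.7 and 18.7 CPM against at most 2.65 CPM. Without these 2 aortas the median was -0.22, with 5 of 24 above 0 and 19 below it, and 2 (Bank1 and Ebf1) had an unadjusted p under 0.05, both lower, with 0 called by edgeR's quasi-likelihood test. The exceptions to the order of aortas were Cd72, for which Ad-FAM3A3 ranked second, and Ebf1. Ebf1, a B-lineage factor that is also expressed in fibroblasts and vascular mural cells, was 99.3 ± 20.9 CPM (SD, n = 6) in the Ad-sham aortas, and 82.1 and 102 CPM in Ad-FAM3A6 and Ad-FAM3A7.

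Of 12 further genes of antibody-secreting cells, 11 were tested, 4 had an unadjusted p under 0.05, all higher, and 0 were called by edgeR's quasi-likelihood test. The median log2 fold change of this list was 0.43, and 5 of 12 had the same 2 aortas at the top. Derl3, which acts in protein quality control of the endoplasmic reticulum, was at 31.2 and 8.14 CPM in Ad-FAM3A6 and Ad-FAM3A7 and at most 2.01 CPM elsewhere. Prdm1, the factor that drives plasma cell formation, was at 32.9 and 8.31 CPM against at most 4.11 CPM. Of the 12 genes 8 were highest in Ad-FAM3A6, and 4 were highest elsewhere, Xbp1, Irf4 and Ell2 in Ad-FAM3A5 and Sdc1 in Ad-sham5, and Ell2 was among those with an unadjusted p under 0.05. Without Ad-FAM3A6 and Ad-FAM3A7 the median log2 fold change of the 11 tested was 0.072, with 0 at an unadjusted p under 0.05 or called by edgeR's quasi-likelihood test.

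Of 7 germinal centre genes, 4 had the same 2 aortas at the top. Gcsam was at 17.0 CPM in Ad-FAM3A6, 1.67 CPM in Ad-FAM3A7 and at most 1.25 CPM elsewhere. Mef2b, a transcription factor, was at 8.76 and 1.04 CPM against at most 0.787 CPM. Bcl6, S1pr2 and Fas, which other cells also express, had their highest level in other aortas. Of these genes 5 were tested, and 0 had an unadjusted p under 0.05 or were called by edgeR's quasi-likelihood test. The median log2 fold change of the 5 was 0.37 with all aortas and 0.15 without Ad-FAM3A6 and Ad-FAM3A7. In the latter, Fas alone had an unadjusted p under 0.05, in the higher direction, and 0 were called.

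Of the signals that attract or sustain B cells, the follicular chemokine Cxcl13 was at 152 and 69.2 CPM in Ad-FAM3A6 and Ad-FAM3A7, and at most 39.5 CPM elsewhere. Lymphotoxin beta, Ltb, which organises lymphoid tissue, was at 59.7 and 22.8 CPM against at most 6.34 CPM. The survival factor BAFF, encoded by Tnfsf13b, was highest in Ad-sham4 at 24.6 CPM, and was at 8.58 and 14.3 CPM in Ad-FAM3A6 and Ad-FAM3A7, the latter being the third highest of the 13 aortas. Of the 10 genes on this list 4 had Ad-FAM3A6 and Ad-FAM3A7 as the 2 highest aortas. The 7 genes tested had a fitted log2 fold change above 0 for 4 and below 0 for 3, with a median of 0.057. At an unadjusted p under 0.05 there were 0 in either direction, and 0 were called by edgeR's quasi-likelihood test. Without these 2 aortas it was -0.40, and Cxcl13 had an unadjusted p under 0.05, in the lower direction, with 0 called by edgeR's quasi-likelihood test.

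Some markers of lymphoid tissue moved with the members, and those of other cell types did so only in part. Their part in the result was not tested. Of 5 lymphoid stroma and high endothelium genes in the table, 3 had Ad-FAM3A6 and Ad-FAM3A7 as the 2 highest aortas. Glycam1, a ligand made by high endothelial venules of lymph nodes, was at 69.6 CPM in Ad-FAM3A6, 12.2 CPM in Ad-FAM3A7 and at most 0.675 CPM elsewhere, Ccl19 at 18.4 and 4.39 CPM against at most 0.793 CPM, and Madcam1 at 5.92 and 0.751 CPM against at most 0.140 CPM. Chst4 was highest in Ad-sham3, at 4.22 CPM, against 3.63 and 0.982 CPM in these aortas, and Ccl21a was at 2.05 CPM in Ad-FAM3A6 but at 0.058 CPM in Ad-FAM3A7, where Ad-sham5 had 0.187 CPM, and these last 2 levels rest on a few counts or fewer. The mean log2 CPM of the 5 genes was 3.19 in Ad-FAM3A6, 0.66 in Ad-FAM3A7 and between -3.02 and -1.48 elsewhere. For 12 T-cell genes it was 5.75 in Ad-FAM3A6, 3.18 in Ad-FAM3A7 and 0.27 to 4.02 in the other 11, and all 12 were highest in Ad-FAM3A6. The smooth muscle score of Ad-FAM3A6, 7.18, was the lowest of the 13 aortas, and that of Ad-FAM3A7 was 8.54. The endothelial score (5 genes) and the adventitial fibroblast score (5 genes) were also lowest in Ad-FAM3A6, at 7.32 against 7.45 to 8.46 and at 7.81 against 7.999 to 9.47 in the 11 aortas other than these 2. The score of 5 cardiac muscle genes was 3.997 in Ad-FAM3A6 and 0.24 in Ad-FAM3A7, and was highest in Ad-sham1, at 4.35, where Jchain was next highest after these 2 aortas. Lymphatic endothelial genes (4 genes) scored 4.72 and 4.94 in these 2 aortas and at most 4.42 elsewhere, and conventional dendritic cell genes (5 genes) 3.23 and 2.86 against at most 2.45. Ad-FAM3A6 and Ad-FAM3A7 were the 2 highest aortas for 2 of the 4 lymphatic genes and 2 of the 5 dendritic cell genes. The fat around the vessel, by 5 adipocyte genes, scored 7.48 and 7.49 in these 2 aortas, within the 6.59 to 8.95 of the other 11.

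**Figure D4:**
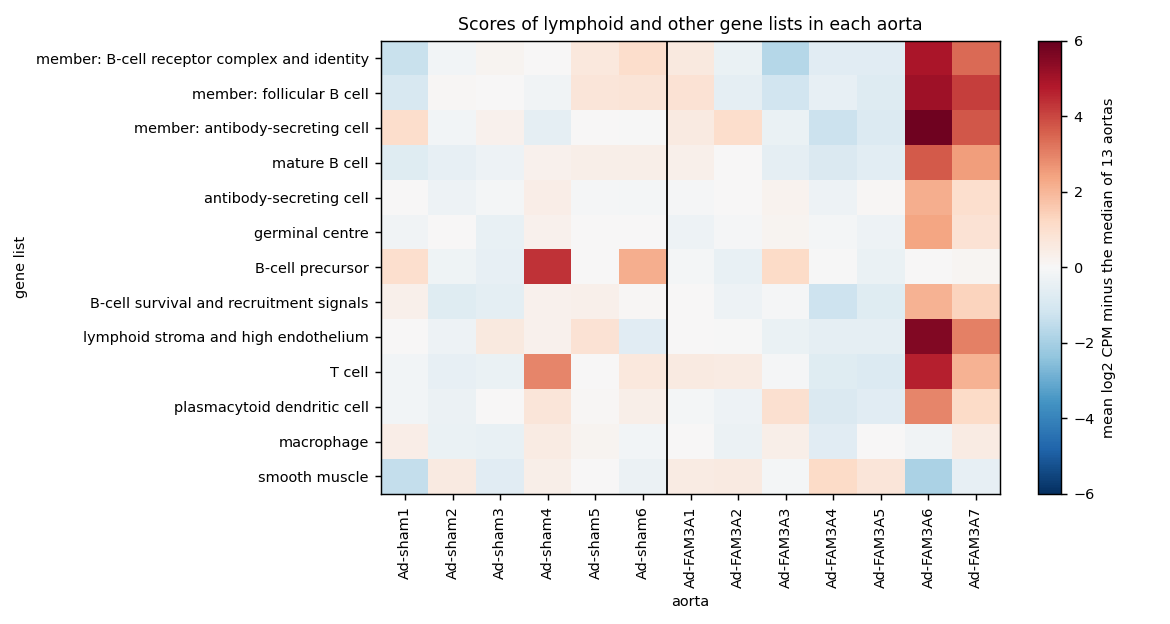
Mean log2 CPM of each gene list (rows) in each aorta (columns), minus the median of the 13 aortas for that list, with red above and blue below it and a line between the groups. The member, mature B-cell, T-cell and lymphoid stroma rows are red in Ad-FAM3A6 and Ad-FAM3A7, the B-cell precursor row is reddest in Ad-sham4, then in Ad-sham6, and near 0 in these 2, the T-cell row is also red in Ad-sham4, and the macrophage and smooth muscle rows are below 0 in Ad-FAM3A6.

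The genes whose pattern over the 13 aortas was most like the mean of the 6 B-cell members, among 17856 genes compared and leaving out immunoglobulin genes, included Fcmr, Spib, A430078G23Rik and Pou2af1. Their Pearson correlations of log2 CPM were 0.98 to 0.99 over 13 aortas, which the 2 high aortas dominate, and 0.85 to 0.97 over the other 11. For the 3 antibody-secreting members they were Ms4a4b, Nkg7, Bcl11a, Gm30211 and Timd4, with 0.95 to 0.96 over 13 aortas and 0.51 to 0.76 over 11. Fcmr, which encodes the IgM receptor, and the transcription regulators Spib and Pou2af1 are known from B cells, Nkg7 from natural killer and cytotoxic T cells, and Timd4 from resident macrophages.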

How the data were processed

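RNA of 13 aortas was sequenced, 6 Ad-sham and 7 Ad-FAM3A, each 1 library. Reads were aligned by the authors with Hisat2 2.0.5 to GRCm38, and they deposited whole-number counts per Ensembl gene from FeatureCounts 1.5.0-p3, and a mean FPKM per group (per the submitters' processing notes). The annotation release, strand setting and handling of shared reads were not given in the sources used here, and 0 columns were left unmapped. The table's coordinates were compared with GENCODE M21, which held all 9 members with an equal start and end for 8, and the differing ones of Mzb1 are not printed.

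Counts were normalised by TMM in edgeR 4.0.16 (R 4.3.3) and filtered by filterByExpr. Both groups entered edgeR's quasi-likelihood test, adjusted after Benjamini and Hochberg over 15811 genes, with SE taken as the fold change over the square root of F. Mean log2 CPM (prior count 2) was compared by exact permutation over 1716 splits, where the smallest possible p is 0.00058. Alternatives used limma 3.58.1 and DESeq2 1.42.0, and scripts were tested on simulated data. P-values measure the spread between aortas. The text names the members, genes of the lists and the 5 genes most like each set. Single values of 2 listed genes are not reported here. Members and lists were chosen with earlier results of these data known.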

Additional observations from a re-analysis of the deposited data

How the results depend on the processing

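The number of members called and of related B-lineage genes called was 0 under other normalizations, other filters, DESeq2, limma-voom, the replicate block and each aorta left out in turn, and was 8 and 19 at an unadjusted p under 0.05. The replicate numbers did not pair the aortas: correlations of same-numbered aortas ran from -0.33 to 0.45, and 1 of 6 Ad-sham aortas, number 3, matched best with its own number. The replicate block changed no call. Ad-FAM3A7 has no Ad-sham aorta of the same number, so under the block it added nothing to the group difference. With the block the log2 fold change of Ms4a1 was -0.065 and that of the other members was at most 0.97. The median log2 difference of the 9 members was then 0.32. That median was 0.73 with all aortas and ran from 0.15 without Ad-FAM3A6 to 1.12 without Ad-FAM3A3, with 0.33 without Ad-FAM3A7. Leaving out 1 aorta at a time gave log2 differences of -0.15 to 1.01 for Ms4a1, -0.087 to 1.04 for Cd79a and -0.17 to 0.57 for Tnfrsf17, the lowest each without Ad-FAM3A6, and Tnfrsf17 was -0.026 without Ad-sham6. Fitted log2 fold changes were 0.75 to 2.43 without Ad-FAM3A6 and 0.63 to 1.68 by limma-voom. Without both Ad-FAM3A6 and Ad-FAM3A7, chosen after seeing the data, they were -0.86 for Ms4a1, -0.61 for Cd79a, -0.48 for Cd79b, -0.51 for Pax5, -0.38 for Cr2, -0.53 for Fcer2a and -0.67 for Jchain. The log2 differences were then -0.91 for Ms4a1, -0.69 for Cd79a, -0.54 for Cd79b, -0.39 for Pax5, -0.46 for Cr2, -0.51 for Fcer2a, -0.39 for Jchain, -0.048 for Mzb1 and -0.41 for Tnfrsf17, with a median of -0.46. The fewer aortas of this alternative are its construction, and no other cause was tested. Depth limits Tnfrsf17 most, as 3 of the aortas had a count of 0.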

Other observations

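Genes of B-cell precursors, which rearrange antibody genes in the bone marrow, were not highest in Ad-FAM3A6 or Ad-FAM3A7. Rag1 and Rag2, the recombinase genes that both B-cell and T-cell precursors use, were at 91.5 and 3.91 CPM in Ad-sham4 and at most 0.058 and 0 CPM in Ad-FAM3A6 and Ad-FAM3A7. Dntt, a polymerase of the same precursors, was at 37.6 CPM in Ad-sham4. Ad-sham6 ranked next for Rag1, Rag2 and Dntt and highest for Vpreb1, with a sum of 139 counts over the 5 precursor genes against 2085 in Ad-sham4, and was also the next highest aorta after Ad-FAM3A6 and Ad-FAM3A7 for Ms4a1, Cd79a and Cd79b. Vpreb1 and Igll1, which encode the surrogate light chain of B-cell precursors, reached at most 1.03 and 0.14 CPM in any aorta. Of 12 T-cell genes, 10 had their second-highest level in Ad-sham4, and 2 had it in Ad-FAM3A7. In Ad-sham4 the B-cell members ranked between sixth and eleventh of the 13 aortas, with Cd79b at 6.02 CPM, Cd79a at 3.59 CPM and Cr2 at 0.961 CPM.

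The mean log2 CPM of 6 plasmacytoid dendritic cell genes was 5.23 in Ad-FAM3A6, 3.47 in Ad-FAM3A7 and at most 3.25 elsewhere. Of these genes, 2 had Ad-FAM3A6 and Ad-FAM3A7 as the 2 highest aortas, and of the 5 tested 2 had a fitted log2 fold change above 0 and 3 below 0, with a median of -0.065. Siglech, a marker of plasmacytoid dendritic cells, was at 18.8 and 20.4 CPM in Ad-FAM3A6 and Ad-FAM3A7 and at most 2.51 CPM elsewhere, whereas Bst2 was highest in Ad-FAM3A2 and Tcf4 in Ad-FAM3A3. Macrophage genes did not follow the members: their mean log2 CPM was 5.64 in Ad-FAM3A6 and 6.35 in Ad-FAM3A7, within the 5.19 to 6.36 of the other 11 aortas.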
